A study of Mus musculus with 106 samples.

Results

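The 9 genes described here encode enzymes of cholesterol synthesis: Hmgcs1, Mvk, Pmvk, Mvd, Idi1, Fdps, Fdft1, Sqle and Lss. They were taken by gene symbol from 4 tables of raw read counts that together hold 24852 gene names, and each of the 4 tables held all 9. Cells build cholesterol from acetyl-CoA in a chain of enzymes in the cytosol and the endoplasmic reticulum. The mevalonate part of the chain ends in isoprenoid diphosphates, which also feed ubiquinone, dolichol and protein prenylation, and squalene synthase opens the branch that leads only to sterols. The genes of the chain are textbook targets of the transcription factor SREBP-2, which is released to the nucleus when sterols in the endoplasmic reticulum run low. Liver and intestine are known as major sites of the synthesis, the brain makes its own cholesterol behind the blood-brain barrier, and fat stores much of the body's free cholesterol.

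The mice were wild-type males, 8 weeks old at the start, labelled C57BL/6J for the warm series and quadriceps and C57BL/6 for all other libraries. In the cold series, mice spent 5 days at 18 °C, 5 days at 14 °C and then 2 weeks at 10 °C, and 11 tissues were compared with controls kept at 22 °C: interscapular brown fat (iBAT), inguinal subcutaneous fat (ingSAT), perigonadal visceral fat (pgVAT), liver, ileum, quadriceps, spleen, bone marrow, brain, hypothalamus and spinal cord. In the warm series, mice spent 4 weeks at 34 °C and 5 tissues, iBAT, liver, ileum, quadriceps and brain, were compared with 22 °C controls of their own. The labels give an age of 11 weeks for the table of 8 tissues, bone marrow and spinal cord and of 12 weeks for the other libraries. The mice of the 2 series came from different breeders, and the series were not compared directly. A group held 3 libraries, except bone marrow (6) and spinal cord (5). Most libraries pooled 2 mice, so the spread between them understates the spread between animals. Bone marrow and spinal cord libraries, and by the study's sample list most iBAT libraries of the warm series, came from single mice.

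The 76 libraries of the cold series held 4262403 to 58290770 counted reads and the 30 of the warm series 29545458 to 62880248. Levels are given as CPM, a read count divided by the library's total and scaled up to a common total, with TMM factors fitted within a comparison. A gene was called when it met the limits of the study in edgeR's quasi-likelihood test: a change above 1.5-fold with p, before adjustment, no higher than 0.05. It is said to have risen or fallen only where the p adjusted over all genes of the tissue by the Benjamini-Hochberg method was below 0.05. Where groups are said not to overlap, the share of all genes so separated was not counted. Such statements describe the values and are no test. In every group each gene used to mark the labelled tissue was detected. A few libraries stood apart in markers of another tissue. In pgVAT at 10 °C, the epididymis genes Adam7, Crisp1, Lcn5 and Rnase9 summed to 15425 CPM in replicate 1 and 17413 CPM in replicate 3 against 2.23 CPM in replicate 2, and to between 481 and 2627 CPM at 22 °C. In quadriceps, replicate 1 at 10 °C held 167 CPM of the same genes, and replicate 1 at 22 °C held 1249 CPM of 4 pancreas genes. In brain, replicate 2 at 22 °C held 59869 CPM of 4 liver genes against 736 and 1102 CPM in the other libraries of that group. In spleen the pancreas genes summed to 15.1 to 2078 CPM at 10 °C and 16.9 to 1026 CPM at 22 °C. Results that rest on the pgVAT, quadriceps and brain libraries are given with and without them.

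The genes lie apart on 7 chromosomes of the GRCm38 build, in the order of the pathway as follows. Hmgcs1, cytosolic HMG-CoA synthase, lies at chr13:119690379-119708260 on the plus strand. Mvk, mevalonate kinase, lies at chr5:114444269-114460591 (plus), and Pmvk, phosphomevalonate kinase, at chr3:89454541-89469013 (plus). Mvd, which decarboxylates mevalonate diphosphate to isopentenyl diphosphate, lies at chr8:122433601-122443422 on the minus strand. Idi1, the isomerase that balances both isoprenoid building blocks, lies at chr13:8885501-8892451 (plus), and Fdps, which joins them into farnesyl diphosphate, at chr3:89093588-89101959 (minus). Fdft1, squalene synthase, lies at chr14:63145150-63179578 (minus), Sqle, squalene epoxidase, at chr15:59315077-59331192 (plus), and Lss, which closes the rings to lanosterol, at chr10:76531588-76557138 (plus). Some of these counts can be shared with other genes. Of all 50-base stretches in the annotated transcripts of each gene, 26.5% for Fdft1, 26.2% for Fdps, 25.3% for Idi1 and 11.6% for Hmgcs1 also occur in transcripts of other genes: 2 for Fdft1, 8 for Fdps, 5 for Idi1 and 125 for Hmgcs1. One of those of Fdft1 is the protease gene Ctsb, whose exons overlap it on the other strand. Pmvk and Mvd share none and Sqle, Mvk and Lss less than 2%, so changes of Fdft1, Fdps, Idi1 and Hmgcs1 carry that uncertainty.

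Promoter sequences were at hand in RefSeq (GRCm38.p6) for 6 of the 9 genes, in 7 windows of 250 bases before a transcription start. All are given 5′ to 3′ on the strand of the gene. Capitals mark the 3 motifs searched on both strands, the sterol regulatory element TCACNCCAC, the CCAAT box (ATTGG when it lies on the other strand) and the E-box CACGTG. Only exact matches within these windows were searched. The 5 windows below are shown because Pmvk, Mvd and Lss were called in each fat depot at 10 °C and Mvk in no comparison. Hmgcs1 is shown because it held the one exact match to TCACNCCAC. The windows are chr13:119690101-119690350 for Hmgcs1, chr5:114444019-114444268 for Mvk, chr3:89454291-89454540 for Pmvk, chr8:122443423-122443672 for Mvd and chr10:76531355-76531604 for Lss.
Hmgcs1: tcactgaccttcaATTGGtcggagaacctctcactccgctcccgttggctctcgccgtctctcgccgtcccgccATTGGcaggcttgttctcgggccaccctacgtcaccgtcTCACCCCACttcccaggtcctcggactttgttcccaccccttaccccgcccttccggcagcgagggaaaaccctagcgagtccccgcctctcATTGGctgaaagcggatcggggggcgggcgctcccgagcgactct
Mvk: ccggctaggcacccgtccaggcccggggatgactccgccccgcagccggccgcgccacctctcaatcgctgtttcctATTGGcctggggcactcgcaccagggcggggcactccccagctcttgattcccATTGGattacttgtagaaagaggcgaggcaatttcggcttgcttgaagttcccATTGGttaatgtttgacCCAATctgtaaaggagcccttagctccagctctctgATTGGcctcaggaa
Pmvk: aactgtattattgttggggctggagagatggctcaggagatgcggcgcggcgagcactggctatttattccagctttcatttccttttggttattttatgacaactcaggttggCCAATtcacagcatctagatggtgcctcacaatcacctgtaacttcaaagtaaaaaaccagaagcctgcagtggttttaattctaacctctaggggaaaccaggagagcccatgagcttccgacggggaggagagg
Mvd: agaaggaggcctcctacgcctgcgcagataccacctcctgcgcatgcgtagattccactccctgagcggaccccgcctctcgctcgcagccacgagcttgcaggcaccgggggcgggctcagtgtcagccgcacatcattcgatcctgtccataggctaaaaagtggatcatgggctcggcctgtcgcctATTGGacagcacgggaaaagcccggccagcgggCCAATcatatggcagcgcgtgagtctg
Lss: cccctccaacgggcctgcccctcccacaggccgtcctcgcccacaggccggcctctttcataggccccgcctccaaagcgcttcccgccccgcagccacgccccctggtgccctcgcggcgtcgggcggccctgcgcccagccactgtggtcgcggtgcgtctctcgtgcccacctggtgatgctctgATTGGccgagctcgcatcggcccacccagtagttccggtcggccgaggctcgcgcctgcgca
A CCAAT box stood in a window of each of the 6 genes, as in 33.8% of 32851 promoters of that length. It was missing from the second window of Pmvk (chr3:89459321-89459570, not shown), which lies inside the annotated span of the gene. Mvk, which was called nowhere, held 5 of them, Hmgcs1 held 3, Mvd held 2, and Lss and the window shown for Pmvk held 1 each. TCACNCCAC was found in Hmgcs1 only, 137 to 129 bases before the start, and in 1.05% of all promoters. CACGTG, found in 6.02% of all promoters, was in none of the 7 windows. These matches describe the letters of the windows and say nothing of binding in these tissues.

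In brown fat, the heat-producing fat depot, most of the chain was higher at 10 °C. The genes that rose were Pmvk, Mvd, Idi1, Fdps, Sqle and Lss, with changes of 2.35- to 4.27-fold. Of the 9 genes, 6 were called higher and 6 passed the adjusted p, where 6.25% and 6.53% of the 12793 genes tested did so in that direction. The median log2 fold change of the 9 genes was 1.24, against -0.01 over all genes. In the mevalonate steps, Pmvk had 70.0, 95.0 and 50.3 CPM at 22 °C and 168, 167 and 172 CPM at 10 °C (log2 fold change 1.24 ± 0.20 SE, adjusted p = 0.00681, edgeR quasi-likelihood test). Mvd had 10.9, 9.94 and 5.55 CPM at 22 °C and 36.0, 30.1 and 32.6 CPM at 10 °C (log2 fold change 1.92 ± 0.23 SE, adjusted p = 0.00159). For both, each library at 10 °C lay above each at 22 °C. The isomerase Idi1, counted at low levels here, had 1.31, 2.57 and 1.29 CPM at 22 °C and 4.31, 3.28 and 4.59 CPM at 10 °C (log2 fold change 1.23 ± 0.31 SE, adjusted p = 0.0349). Fdps changed most of the 9, with 25.5, 27.0 and 14.2 CPM at 22 °C and 88.8, 102 and 91.7 CPM at 10 °C (log2 fold change 2.09 ± 0.22 SE, adjusted p = 0.000927). These groups did not overlap either. In the sterol branch, Sqle had 25.3, 21.4 and 12.2 CPM at 22 °C and 58.5, 62.2 and 67.6 CPM at 10 °C (log2 fold change 1.69 ± 0.23 SE, adjusted p = 0.00303) and Lss 55.3, 67.6 and 44.8 CPM at 22 °C and 138, 147 and 129 CPM at 10 °C (log2 fold change 1.305 ± 0.15 SE, adjusted p = 0.00156). Replicate 3 at 22 °C was the lowest of its group in all of the 9 genes but Hmgcs1, in which it was the highest.

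The other 3 enzymes of the chain did not pass in brown fat at 10 °C. Hmgcs1, which makes HMG-CoA, had 265, 306 and 463 CPM at 22 °C and 407, 469 and 462 CPM at 10 °C (log2 fold change 0.37 ± 0.20 SE, adjusted p = 0.274). Mvk had 18.8, 25.3 and 17.2 CPM at 22 °C and 25.6, 27.4 and 24.8 CPM at 10 °C (adjusted p = 0.193), and Fdft1, the entry to the sterol branch, 82.6, 105 and 77.9 CPM at 22 °C and 99.8, 105 and 105 CPM at 10 °C (adjusted p = 0.299). In each of the 3 the groups overlapped. In Hmgcs1, replicate 3 at 22 °C was as high as the 10 °C libraries, and without it Hmgcs1 was called too, with a log2 fold change of 0.65. Muscle genes (Acta1, Ckm, Myh4 and Tnnt3, all 4 counted) summed to 5400 to 7349 CPM at 22 °C and 2043 to 4435 CPM at 10 °C, and the brown fat genes Ucp1, Cidea, Adipoq and Plin1 to 9182 to 14425 and 13421 to 17554 CPM. The 4 liver genes summed to 40.8 to 75.9 CPM at 22 °C and 0.191 to 0.820 CPM at 10 °C. Their part in these results was not tested, and in bulk tissue a change in cell number and in RNA per cell cannot be told apart.

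**Figure D1:**
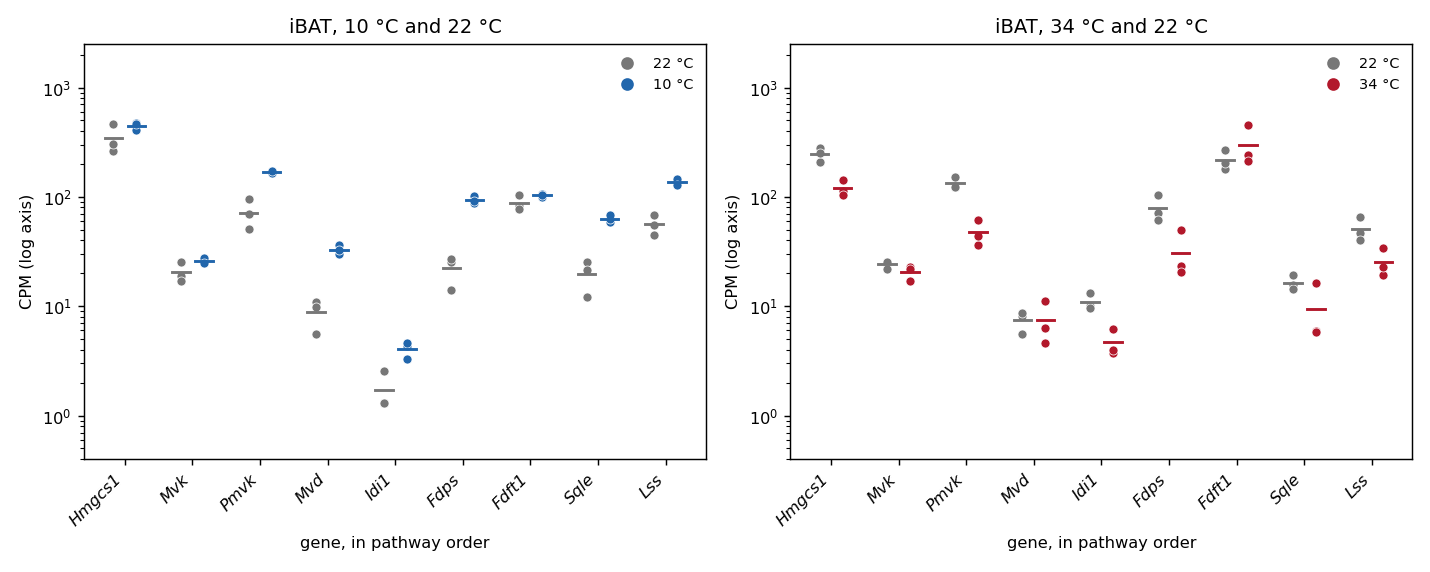
CPM of the 9 enzymes (log axis) in each library of brown fat, at 10 °C and 22 °C on the left and at 34 °C and 22 °C on the right; points are libraries and bars group means. At 10 °C the points of 6 genes lie wholly above those at 22 °C, and at 34 °C the points of 5 genes lie wholly below. The share of all genes so separated was not counted.

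In brown fat at 34 °C part of the chain was lower. Hmgcs1, Pmvk, Idi1, Fdps and Lss fell, to between 0.357 and 0.504 of the level at 22 °C. These 5 of 9 were called lower and also passed the adjusted p, against 7.56% and 15.9% of 12318 genes in that direction, and the median log2 fold change of the 9 was -0.99 (0.01 over all genes). Hmgcs1 had 279.5, 209.9 and 250.4 CPM at 22 °C and 114, 143 and 103 CPM at 34 °C (log2 fold change -1.04 ± 0.16 SE, adjusted p = 0.00457). Pmvk had 123, 152 and 123 CPM at 22 °C and 36.1, 61.9 and 44.2 CPM at 34 °C (log2 fold change -1.49 ± 0.20 SE, adjusted p = 0.00315). In both genes all libraries at 34 °C were below all at 22 °C. Among the isoprenoid enzymes, Idi1 had 9.95, 13.1 and 9.70 CPM at 22 °C and 3.77, 6.25 and 3.97 CPM at 34 °C (log2 fold change -1.23 ± 0.24 SE, adjusted p = 0.0109) and Fdps 71.1, 104 and 62.0 CPM at 22 °C and 23.1, 49.4 and 20.5 CPM at 34 °C (log2 fold change -1.35 ± 0.35 SE, adjusted p = 0.0278). Lss, the cyclase, had 46.5, 65.1 and 39.9 CPM at 22 °C and 19.4, 34.4 and 22.6 CPM at 34 °C (log2 fold change -0.99 ± 0.25 SE, adjusted p = 0.0251). In Fdps and Lss replicate 2 at 34 °C lay well above the other libraries of its group, yet under the lowest at 22 °C. Sqle showed the same library still higher, with 15.6, 19.2 and 14.4 CPM at 22 °C and 5.96, 16.4 and 5.78 CPM at 34 °C, so that its groups overlapped (log2 fold change -0.81 ± 0.40 SE, adjusted p = 0.16); without replicate 2 at 34 °C Sqle was called lower as well, with a log2 fold change of -1.51.

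Mvd, which was 3.79-fold higher at 10 °C, had 8.14, 8.59 and 5.60 CPM at 22 °C and 6.39, 11.2 and 4.61 CPM at 34 °C in the warm series, a ratio of 0.999 with a standard error of 0.34 on the log2 scale. Mvk differed by -0.22 (adjusted p = 0.229). Fdft1 leaned the other way, with 181, 205 and 269.6 CPM at 22 °C and 240.0, 213 and 449 CPM at 34 °C (log2 fold change 0.46 ± 0.29 SE, adjusted p = 0.261). Scaled by library size alone, Fdft1 was called higher, so that the calls split into 5 lower and 1 higher in place of 5 and 0. The brown fat genes named above summed to 11154 to 14447 CPM at 22 °C and 6416 to 7685 CPM at 34 °C, and 3 macrophage genes to 32.9 to 51.5 and 61.3 to 91.0 CPM; their part was not tested.

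In inguinal subcutaneous fat, 8 of the 9 genes were called higher at 10 °C, all but Mvk, and Hmgcs1, Pmvk, Fdps and Lss rose. Of all 13977 genes tested there, 7.11% were called higher and 4.56% passed the adjusted p upward. The median log2 fold change of the 9 genes was 1.18 (-0.01 over all genes). Hmgcs1 had 229.8, 119.7 and 187 CPM at 22 °C and 468, 353 and 379 CPM at 10 °C (log2 fold change 1.16 ± 0.25 SE, adjusted p = 0.0409). Pmvk had 82.5, 69.3 and 43.5 CPM at 22 °C and 200.3, 147 and 159.6 CPM at 10 °C (log2 fold change 1.38 ± 0.25 SE, adjusted p = 0.025). Fdps, the largest of the 4 that rose, had 25.4, 17.9 and 11.1 CPM at 22 °C and 55.8, 51.2 and 52.1 CPM at 10 °C (log2 fold change 1.55 ± 0.28 SE, adjusted p = 0.0238). Lss closed this group with 66.2, 53.7 and 38.4 CPM at 22 °C and 143, 95.5 and 109 CPM at 10 °C (log2 fold change 1.135 ± 0.23 SE, adjusted p = 0.0365). The called genes that missed the adjusted p were Mvd, with 15.5, 11.3 and 5.88 CPM at 22 °C and 44.0, 24.5 and 27.3 CPM at 10 °C (adjusted p = 0.0558), Idi1, with a log2 fold change of 1.29 (adjusted p = 0.0648), Sqle, with 1.18 (adjusted p = 0.0666), and Fdft1, with 0.67 (adjusted p = 0.0927). In all 8 called genes each library at 10 °C lay above each at 22 °C, and the share of all genes so separated was not counted. Replicate 1 was the highest library of its temperature in Hmgcs1, Pmvk, Mvd, Fdps, Fdft1, Sqle and Lss, at 22 °C and at 10 °C. Mvk, with 30.9, 30.3 and 22.2 CPM at 22 °C and 30.4, 20.1 and 30.7 CPM at 10 °C, showed no such shift.

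Fdft1 lost its call in ingSAT without replicate 1 at 10 °C or without replicate 3 at 22 °C, and the other 7 calls stood whichever library was left out. The white fat genes Adipoq, Plin1, Lep and Fabp4 summed to 13854 to 22266 CPM at 22 °C and 21421 to 23894 CPM at 10 °C, macrophage genes to 242 to 566 and 170.1 to 251 CPM, and muscle genes to 955 to 2533 and 20.0 to 1425 CPM. Whether these shifts in make-up took part was not tested.

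In perigonadal fat at 10 °C, 7 genes were called higher, all but Mvk and Idi1, where 5.01% of 14863 genes were; no gene of the tissue passed the adjusted p (0% of genes), and it was 0.586 for each of the 7. The median log2 fold change of the 9 genes was 0.94 (0.07 over all genes). The groups overlapped in Mvk and Sqle, and the share of all genes without overlap was not counted. Here the libraries set apart by epididymis genes bear on the result. Mvd had 9.30, 6.94 and 4.88 CPM at 22 °C and 22.9, 19.5 and 38.0 CPM at 10 °C (log2 fold change 1.91 ± 0.37 SE, adjusted p = 0.586). Fdps had 25.0, 15.4 and 12.6 CPM at 22 °C and 60.6, 25.8 and 92.5 CPM at 10 °C and Sqle 30.3, 22.8 and 24.6 CPM at 22 °C and 54.5, 25.5 and 82.4 CPM at 10 °C. Both were highest in replicates 1 and 3 at 10 °C, the libraries with 15425 and 17413 CPM of epididymis genes, and replicate 2 lay just above the highest 22 °C library in Fdps and inside the 22 °C range in Sqle. Hmgcs1 was ordered the other way, with 205, 125 and 149.7 CPM at 22 °C and 251, 377 and 229 CPM at 10 °C, and so was Pmvk, with 65.4, 61.6 and 40.4 CPM at 22 °C and 78.4, 133 and 109 CPM at 10 °C; replicate 2 was the highest in these. Lss had 49.5, 38.9 and 42.3 CPM at 22 °C and 102, 68.6 and 139 CPM at 10 °C and Fdft1 34.8, 42.9 and 45.1 CPM at 22 °C and 58.5, 53.4 and 114 CPM at 10 °C. Without replicates 1 and 3, the single remaining 10 °C library, assumed to vary like the controls, left 4 of the 7 calls: Hmgcs1 (1.29), Pmvk (1.31), Mvd (1.502) and Lss (0.71), while Fdps (0.58), Fdft1 (0.45) and Sqle (0.03) were no longer called. Each of the other 5 ways of leaving out 1 library apart from replicate 1 at 10 °C also cost at least 2 calls, and leaving out replicate 3 at 22 °C left 3, Mvd, Fdps and Lss. Mvd and Lss were called in all of these fits. The 22 °C libraries of pgVAT held 23789328, 7607873 and 4262403 counted reads in replicates 1 to 3, and the part of depth was not tested.

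In quadriceps at 10 °C, 4 genes were called higher, Pmvk, Idi1, Sqle and Lss, where 3.03% of 11820 genes were, and none passed the adjusted p, as did 0.0592% of genes upward. The median log2 fold change of the 9 was 0.47 (0.02 over all genes). The last steps of the chain moved most. Sqle, low in muscle at 22 °C, had 2.09, 1.21 and 1.12 CPM at 22 °C and 5.14, 6.06 and 3.01 CPM at 10 °C (log2 fold change 1.69 ± 0.35 SE, adjusted p = 0.2). Lss had 1.95, 2.99 and 3.35 CPM at 22 °C and 7.07, 7.16 and 4.26 CPM at 10 °C (log2 fold change 1.15 ± 0.28 SE, adjusted p = 0.286). Both genes were separated between the temperatures, with replicate 3 the lowest of the 10 °C group. Pmvk, at the fold limit, had 9.51, 12.0 and 11.4 CPM at 22 °C and 16.5, 19.1 and 13.8 CPM at 10 °C and Idi1 1.54, 2.29 and 1.72 CPM at 22 °C and 3.46, 3.31 and 2.59 CPM at 10 °C, both with replicate 3 lowest at 10 °C again. Hmgcs1, Mvd and Fdps stayed under the fold limit at log2 differences of 0.47, 0.36 and 0.11, and Mvk and Fdft1 lay below 0, at -0.10 and -0.20. Brown fat genes summed to 270.3, 261 and 79.1 CPM at 10 °C, in replicates 1 to 3, and to 32.4 to 52.8 CPM at 22 °C, and white fat genes to 626, 697 and 247 against 177 to 265 CPM. Replicate 3, with the least of them, was also the lowest of its group in the 4 called genes, and the part of the fat genes was not tested. Without replicate 1 of both groups, which held epididymis and pancreas genes, Sqle (1.96) and Lss (0.85) were still called and Pmvk (0.49) and Idi1 (0.55) were not. Pmvk also lost its call by DESeq2, with RLE size factors, with all 6 libraries at 22 °C, and without replicate 1 at 22 °C or replicate 1 or 2 at 10 °C. Scaling by library size alone moved the median of all genes in quadriceps by 0.23 and added calls for Hmgcs1 and Mvd.

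**Figure D2:**
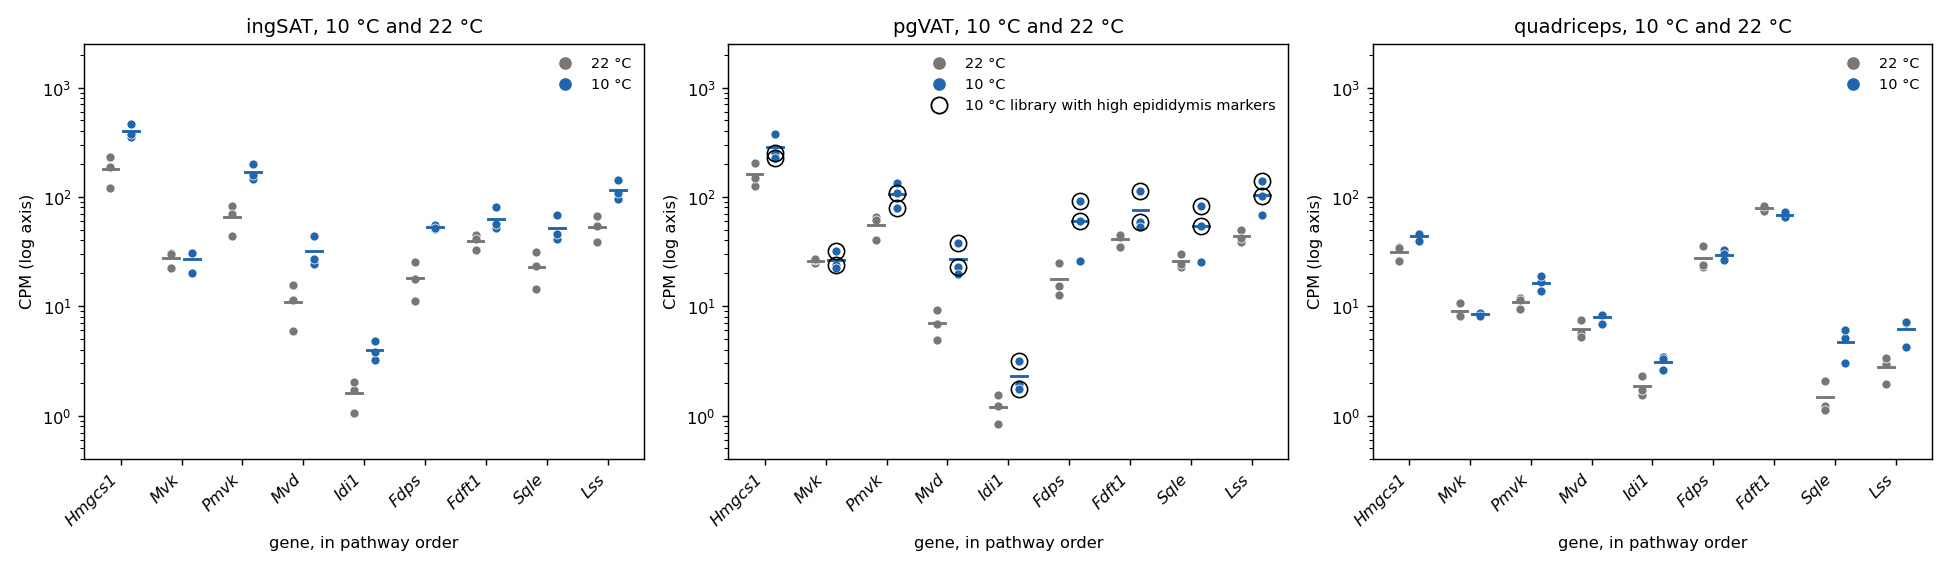
CPM of the 9 enzymes (log axis) in each library of ingSAT, pgVAT and quadriceps at 22 °C and 10 °C; points are libraries, bars group means, and rings mark the pgVAT libraries with high epididymis genes. In ingSAT 8 genes separate the temperatures, and the share of all genes that do so was not counted. In pgVAT the ringed libraries are the highest for Mvd, Fdps, Fdft1, Sqle and Lss, and in quadriceps Sqle and Lss show the widest gaps.

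In bone marrow, with 6 single mice a group, 2 genes of the sterol branch rose by less than the fold limit. Sqle had a lowest, median and highest value of 21.0, 22.4 and 26.5 CPM at 22 °C and 27.7, 30.3 and 32.7 CPM at 10 °C (log2 fold change 0.37 ± 0.07 SE, adjusted p = 0.00405), and the groups did not overlap. Fdft1 had 17.2, 20.5 and 23.1 CPM at 22 °C and 22.8, 23.9 and 28.1 CPM at 10 °C in the same order (log2 fold change 0.26 ± 0.07 SE, adjusted p = 0.0245), with overlap. None of the 9 was called, as were 1.26% of 12525 genes, while 7.32% passed the adjusted p upward and 11.8% downward. The other 7 differed by -0.26 (Idi1) to 0.12 (Pmvk) on the log2 scale. The B cell genes Cd79a and Ms4a1 summed to 160.0 to 225 CPM at 22 °C and 226 to 278 CPM at 10 °C, without overlap, and Alas2, the one red cell gene counted, had 2509 to 3648 and 3420 to 4693 CPM. Their part was not tested.

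In the other 6 tissues at 10 °C none of the 9 was called with all libraries. Ileum showed a small difference in 1 direction: all 9 genes were higher on average, by 0.12 (Lss) to 0.44 (Pmvk) on the log2 scale with a median of 0.33, while the lowest adjusted p was 0.18 and 2.73% of 14081 genes were called. Pmvk there had 49.5, 39.5 and 38.6 CPM at 22 °C and 63.2, 60.4 and 49.3 CPM at 10 °C. Liver genes in ileum summed to 2459 to 2658 CPM at 22 °C and 4065 to 5131 CPM at 10 °C, and their part was not tested. In liver, 7 of the 9 lay below 0, with a median of -0.11 and a lowest adjusted p of 0.332, and 3.2% of 12028 genes were called. Hepatic Hmgcs1 had 603, 600.2 and 527 CPM at 22 °C and 331, 642 and 350.4 CPM at 10 °C: replicate 2 at 10 °C was above all 22 °C libraries and the other 2 were far below, and without replicate 2 Hmgcs1 was called lower, at -0.76, and the median of the 9 was -0.46, against -0.03 without replicate 1 at 10 °C and -0.07 without replicate 3. The same library was the highest of its group for Pmvk, Fdps, Fdft1, Sqle and Lss, as for Sqle with 96.6, 104 and 82.0 CPM at 22 °C and 62.8, 97.3 and 69.0 CPM at 10 °C.

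In spleen the 9 genes differed by -0.01 to 0.42 on the log2 scale (2.71% of 14113 genes called), and Hmgcs1, with 64.9, 62.8 and 59.9 CPM at 22 °C and 79.6, 73.6 and 73.1 CPM at 10 °C, was separated between the groups (log2 fold change 0.27 ± 0.07 SE, adjusted p = 0.477). With each library left out in turn, those high in pancreas genes included, the value for Hmgcs1 was 0.24 to 0.32. In hypothalamus the range was -0.07 to 0.06 (0.578% of 14526 genes called), the narrowest of the 16 comparisons. Fdps, which changed most in iBAT, had 35.3, 33.3 and 33.1 CPM at 22 °C and 33.4, 35.7 and 35.9 CPM at 10 °C there (log2 difference 0.05 ± 0.06 SE). In spinal cord, of single mice, the differences ran from -0.28 to 0.13 (0.271% of 14383 genes called). Hmgcs1 was lower in each mouse at 10 °C (489.6, 501, 509, 478 and 521 CPM) than at 22 °C (539, 534, 646, 565 and 550.4 CPM), with a log2 difference of -0.18 (adjusted p = 0.779). Sqle was separated in the same way, at -0.11 (adjusted p = 0.779).

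Brain at 10 °C turned on 1 library. With all libraries, all 9 genes lay below 0 (median -0.41, or -0.24 by library size alone, lowest adjusted p 0.713), and 2.73% of 14416 genes were called. Fdps had 27.0, 130.3 and 30.8 CPM at 22 °C and 27.7, 32.9 and 26.5 CPM at 10 °C, Lss 35.5, 109 and 43.5 CPM at 22 °C and 39.1, 40.3 and 37.8 CPM at 10 °C and Hmgcs1 318, 741 and 333 CPM at 22 °C and 323, 337 and 347 CPM at 10 °C. In each, replicate 2 at 22 °C, the library with 59869 CPM of liver genes and the second value given, stood far above all others. Without it the median of the 9 was 0.00, 5 of the 9 lay above 0, and 0.801% of 13975 genes were called. Idi1 was then called higher (0.87, unadjusted p = 0.0254, adjusted p = 0.492), from 0.943, 1.21 and 1.32 CPM at 10 °C against 0.802 and 0.489 CPM at 22 °C.

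The 4 other tissues at 34 °C gave no call among the 9. In ileum all 9 genes lay below 0, by -0.41 (Pmvk) to -0.10 (Mvk) with a median of -0.33, opposite in sign to those at 10 °C, with a lowest adjusted p of 0.602 and 2.91% of 13020 genes called. Ileal Fdps had 179.6, 163 and 161 CPM at 22 °C and 143, 103 and 137 CPM at 34 °C, and replicate 2 at 34 °C was the lowest library of its group in all 9 genes; without it the median was -0.14. In brain all 9 lay below 0 as well, by -0.38 to -0.02 (0.193% of 13979 genes called). Mvd had 25.2, 27.9 and 24.0 CPM at 22 °C and 18.9, 20.4 and 19.8 CPM at 34 °C, without overlap (log2 fold change -0.38 ± 0.08 SE, adjusted p = 0.999). In liver the differences ran from -0.32 to 0.44 (3.39% of 11179 genes called) with wide spreads, as for Fdps with 138, 263 and 190.2 CPM at 22 °C and 137, 364 and 209.9 CPM at 34 °C. Replicate 2 at 34 °C was the highest in all 9 genes there, and without it Hmgcs1, Idi1 and Sqle were called lower, at -0.63, -0.59 and -0.83. Without replicate 1 at 34 °C Lss was called higher, at 0.60. In quadriceps 8 genes could be tested, Sqle being below the expression filter (1.29, 0.585 and 0.409 CPM at 22 °C and 0.438, 0.321 and 0.491 CPM at 34 °C), and they differed by -0.29 (Lss) to 0.41 (Idi1), with 1.23% of 11745 genes called.

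**Figure D3:**
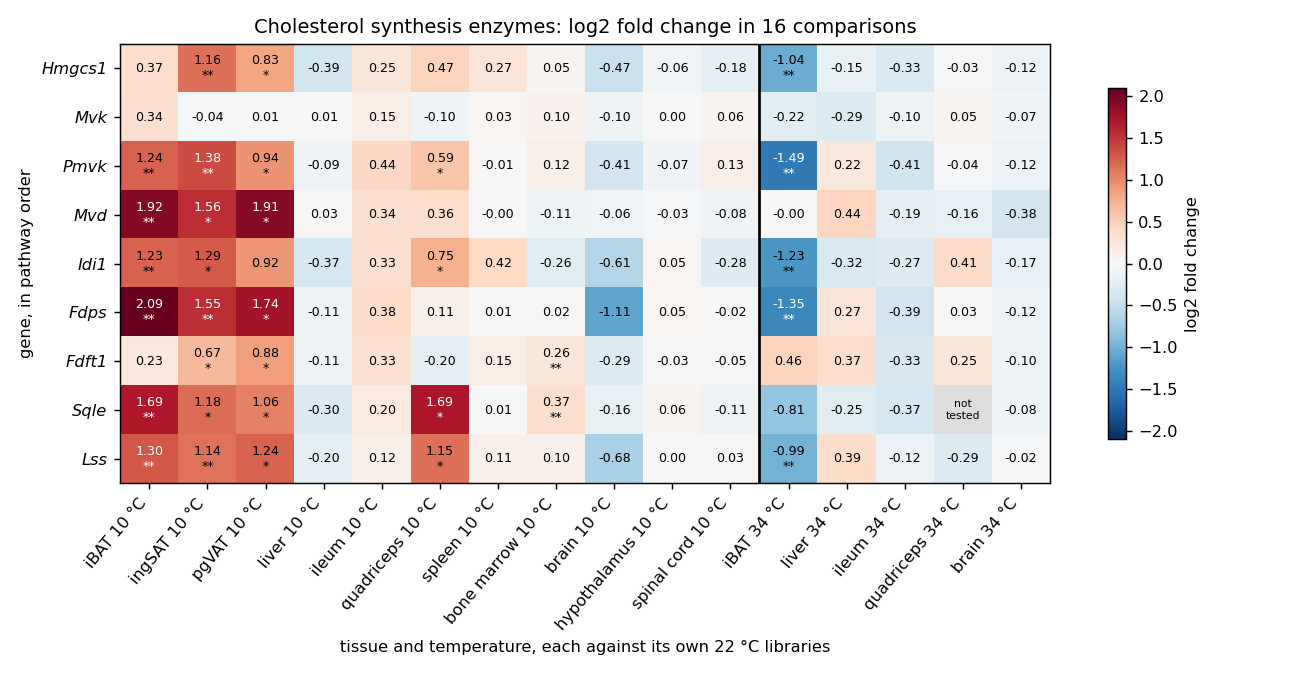
Log2 fold change of each enzyme (rows, in pathway order) against the tissue's own 22 °C libraries in 16 comparisons (columns); 2 stars mark an adjusted p below 0.05 and 1 star a call without it. Stars stand in 6 genes of iBAT, 8 of ingSAT, 7 of pgVAT, 4 of quadriceps and 2 of bone marrow at 10 °C and in 5 of iBAT at 34 °C; the 2 in bone marrow lie under the fold limit, and the Mvk row holds none.

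Read along the chain, the enzymes did not move alike. Mvk was called in none of the 16 comparisons, its differences ranging from -0.29 to 0.34 on the log2 scale. Pmvk, the next kinase, and Lss were each called in 5 comparisons: iBAT, ingSAT, pgVAT and quadriceps at 10 °C and iBAT at 34 °C, Pmvk in quadriceps only at the fold limit. Sqle was called in the 4 comparisons at 10 °C, Fdps in the 3 fat depots at 10 °C and in iBAT at 34 °C, and Idi1 in iBAT, ingSAT and quadriceps at 10 °C and in iBAT at 34 °C. Mvd was called in the 3 fat depots at 10 °C, and Hmgcs1 in ingSAT and pgVAT at 10 °C and in iBAT at 34 °C. Fdft1 was called in ingSAT and pgVAT alone. The 2 comparisons of brown fat come from separate mice and controls.

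Whether a gene's response to 10 °C differed between tissues was tested over the 8 tissues of the largest table, as the interaction of tissue and temperature. It did for 6 of the 9 genes, where 15.7% of 15887 genes passed: Mvd (adjusted p = 0.000291), Fdps (0.000672), Lss (0.00119), Pmvk (0.00181), Sqle (0.00235) and Hmgcs1 (0.025), all by edgeR's quasi-likelihood test. Fdft1 (0.0838), Idi1 (0.091) and Mvk (0.811) did not pass. Between the fat depots themselves no gene passed: ingSAT minus iBAT was -0.60 (Fdps) to 0.75 (Hmgcs1) on the log2 scale (lowest adjusted p 0.277), iBAT minus pgVAT -0.61 (Fdft1) to 0.70 (Sqle) (lowest adjusted p 0.226), and ingSAT minus pgVAT -0.31 (Mvd) to 0.42 (Pmvk) (lowest adjusted p 0.488). The standard errors of these differences were 0.24 to 0.79, so differences of that size could be missed. The values at 10 °C come from fits that include the pgVAT libraries with epididymis genes and the brain library with liver genes. For 34 °C, over 5 tissues, the response differed for Pmvk (adjusted p = 0.00258), Idi1 (0.0165) and Lss (0.034), 3 of 9, where 12.8% of 14913 genes passed. By library size alone Pmvk (0.0112) passed, and Idi1 (0.058) and Lss (0.135) did not. The interaction fits treated all libraries as independent, with no term for mice that may have given several tissues. They also took a common spread over tissues for each gene, although the spread differed between tissues.

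The rest of the pathway was followed through 5 lists. At the start of the chain Acat2, the acetoacetyl-CoA thiolase, rose in iBAT at 10 °C, from 142 ± 5.94 to 227 ± 23.9 CPM (0.67 ± 0.12 SE, log2). It was also called higher, without passing the adjusted p, in ingSAT (1.06 ± 0.26, adjusted p = 0.0531), pgVAT (1.34 ± 0.29, adjusted p = 0.586) and quadriceps (1.67 ± 0.33, adjusted p = 0.196). Without the libraries set apart by epididymis or pancreas genes Acat2 was at 1.33 in pgVAT and 1.64 in quadriceps, called in both.

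Of 9 later enzymes, on the way from lanosterol to cholesterol, 7 rose in iBAT at 10 °C (median of the 9 0.96, all genes -0.01). Cyp51, the lanosterol demethylase, went from 48.5 ± 11.0 to 137 ± 4.13 CPM (adjusted p = 0.00101) and Sc5d, the desaturase that makes the ring double bond of cholesterol, from 101 ± 27.3 to 357 ± 59.3 CPM. Hsd17b7 (1.07 ± 0.12) and Nsdhl (1.32 ± 0.17), which act in removing the methyl groups, and the sterol reductase gene Tm7sf2 (0.87 ± 0.15) rose as well. Lbr and Ebp were the 2 that did not, at -0.22 and 0.01. In ingSAT at 10 °C 4 of the 9 rose: Sc5d (1.56 ± 0.21), Msmo1 (1.53 ± 0.21), Hsd17b7 (0.99 ± 0.20) and Cyp51 (1.64 ± 0.35), and 6 were called. In pgVAT 4 and in quadriceps 3 were called higher, none past the adjusted p, and the counts were the same without those libraries. The median of the 9 was 0.99 in ingSAT. At 34 °C in iBAT (median -0.23) 2 fell, Nsdhl (-1.55 ± 0.24) and Sc5d (-0.69 ± 0.19), and 1, Lbr, rose (0.84 ± 0.11, where 12.7% of all genes rose). Lbr is also a protein of the inner nuclear membrane that binds chromatin. In bone marrow, Cyp51 rose slightly, by 0.23 ± 0.06.

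Among 9 genes of sterol sensing and uptake (median 0.11 in iBAT and -0.09 in ingSAT at 10 °C, -0.08 in iBAT at 34 °C), Stard4, a cytosolic sterol carrier, rose in iBAT at 10 °C by 1.10 ± 0.30 and Srebf2, the gene of SREBP-2, by 0.37 ± 0.10. Insig1, which holds SREBP in the endoplasmic reticulum and is itself an SREBP target, was called only (0.72 ± 0.23, adjusted p = 0.0732). In ingSAT, Stard4 (0.79 ± 0.14) and Insig1 (1.83 ± 0.35) rose and Srebf2 was at -0.03 ± 0.17. In pgVAT Insig1 went from 104 ± 14.7 to 545 ± 159 CPM, called and without overlap between groups, but with adjusted p = 0.43; Srebf2 was at 0.62 ± 0.38. Without the libraries with epididymis genes, on 1 library at 10 °C, Insig1 was at 2.85 (adjusted p = 0.0329) and Srebf2 at -0.18. In quadriceps Insig1 was called (1.33 ± 0.20, adjusted p = 0.0887), while Srebf2 (0.34 ± 0.19) was not; without replicate 1 of both groups both were, at 1.19 and 0.60. At 34 °C in iBAT Scap (-0.47 ± 0.11) and Insig2 (-0.38 ± 0.09), which escort and retain SREBP, and Mbtps1 (-0.35 ± 0.10), the protease that cleaves it, fell, all under the fold limit. Insig1 (-0.59 ± 0.42) and Srebf2 (-0.02 ± 0.14) did not pass there. In bone marrow Insig1 rose (0.22 ± 0.07) and Npc2, which moves cholesterol out of lysosomes, fell (-0.20 ± 0.06).

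The 12 genes of sterol efflux, esterification and breakdown gave no call in iBAT at 10 °C, where 7 could be tested (median 0.11), and 5 calls, 3 higher and 2 lower, in iBAT at 34 °C (median 0.62), where 11.9% of all genes were called higher and 7.56% lower. In ingSAT Abca1, the exporter of cholesterol to apolipoprotein A-I, fell from 862 ± 212 to 426 ± 36.1 CPM (adjusted p = 0.0376, where 3% of all genes fell). In iBAT at 34 °C Abca1 (-0.77 ± 0.16) and the sterol receptor gene Nr1h3 (-0.71 ± 0.11) fell, and Abcg1 (0.73 ± 0.18), Mylip (0.84 ± 0.17) and Cyp27a1 (0.62 ± 0.14) rose. In bone marrow Soat1 (-0.38 ± 0.10) and Abcg1 (-0.30 ± 0.07) fell and Mylip rose (0.15 ± 0.04). In liver at 34 °C Cyp46a1, a cholesterol hydroxylase known from brain, rose from 3.02 ± 0.363 to 8.05 ± 1.94 CPM (adjusted p = 0.0341, where 0.116% of all genes rose). Of 10 genes of the nonsterol isoprenoid branch (median 0.26 in iBAT at 10 °C and -0.25 at 34 °C), Pdss2, a subunit that makes the ubiquinone side chain, rose in iBAT at 10 °C (0.44 ± 0.12) and fell at 34 °C (-0.54 ± 0.11). There Pdss1 (-0.78 ± 0.16) and Icmt (-0.56 ± 0.07) also fell, Fntb rose (0.65 ± 0.14), and Nus1 fell (-0.27 ± 0.08) but was at 0.01 with scaling by library size alone. In the other comparisons none of the 5 lists held a gene past the adjusted p. In brain at 10 °C, 4 of the efflux list were called lower, where 2.46% of all genes were, each with a 22 °C mean carried by the library with liver genes.

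**Figure D4:**
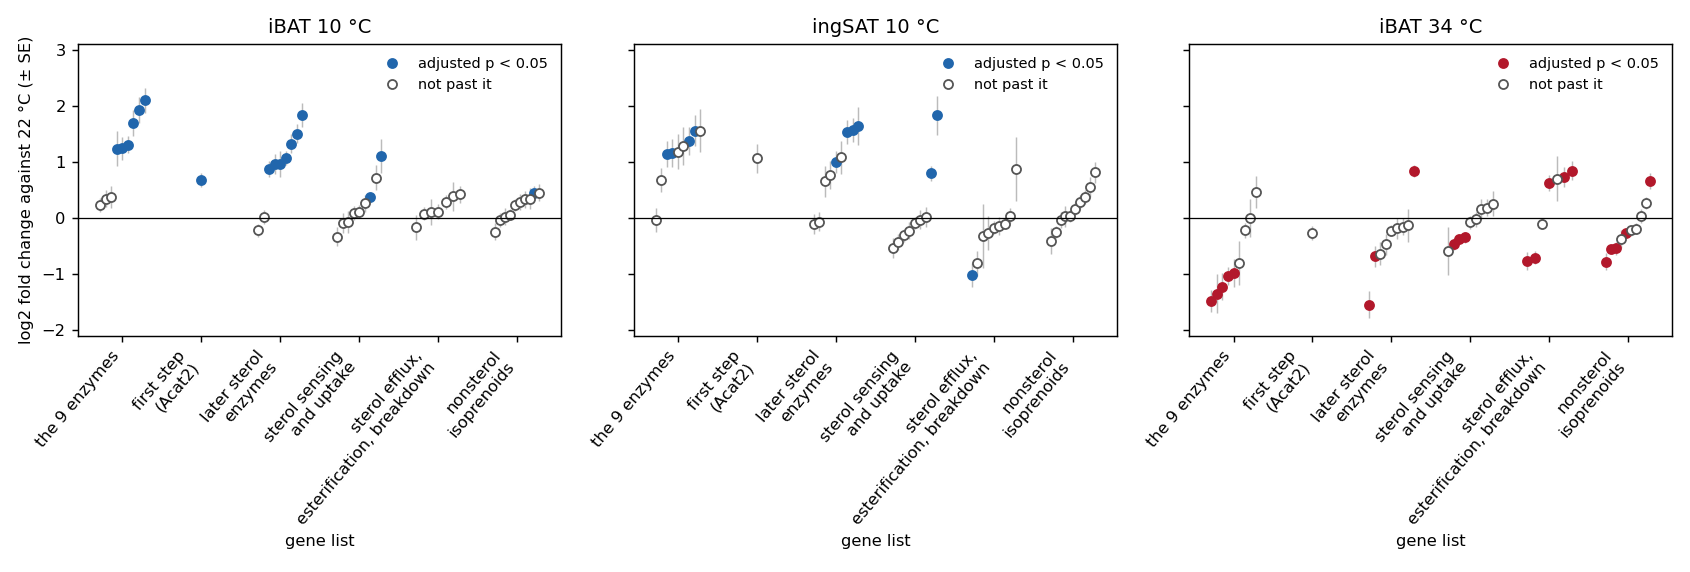
Log2 fold change ± SE of every tested gene of the 9 enzymes and of 5 pathway lists in iBAT at 10 °C, ingSAT at 10 °C and iBAT at 34 °C; each point is a gene, filled where the adjusted p is below 0.05, ordered by value within a list. At 10 °C most filled points above 0 belong to the 9 enzymes and the later sterol enzymes, and at 34 °C filled points lie on both sides of 0 in 3 of the lists.

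At 22 °C the summed level of the 9 genes differed widely between tissues. Because kits and instruments differed, levels are compared within a table only, as CPM scaled over the whole table, a scale that differs from the one used above. In the table of 8 tissues the summed CPM of the 9 genes was highest in liver (2041 ± 97.0 SD, n = 3), then ileum (1272 ± 191), brain (776 ± 272, and 621 without the library with liver genes), iBAT (774 ± 102), hypothalamus (545 ± 27.6), ingSAT (390.3 ± 90.4), pgVAT (339.9 ± 60.1) and spleen (144 ± 8.85). Brain and iBAT overlapped, as did ingSAT and pgVAT, and no other neighbours did. The overlap of brain and iBAT came from the library with liver genes: the others of brain held 586 and 656 CPM, and those of iBAT 660 CPM or more. The sum is not corrected for gene length and rests much on Hmgcs1. That gene alone had 1055 CPM in liver, 658 in ileum and 422 in iBAT, and 44.2 in spleen. In the table with the warm series, ileum (1121 ± 56.9) stood above liver (869 ± 171), iBAT (616 ± 22.01), brain (434 ± 16.4) and quadriceps (227 ± 4.63, and 221 ± 6.97 in the controls of the cold series), and only the 2 groups of quadriceps overlapped. The scaling turns the order: by library size alone ileum (1309 CPM) stood above liver (1142 CPM), and hypothalamus (671 CPM) was level with iBAT (669.9 CPM), in the table of 8 tissues. Brain was at 801 CPM on that scale with the library with liver genes included, and its value without that library was not calculated. In the other table liver (607 CPM) fell below iBAT (712 CPM) and brain (688 CPM). Bone marrow, in a table of its own, summed to 151 ± 5.62 CPM (n = 6), and spinal cord to 1042 ± 51.3 CPM (n = 5).

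Levels per kilobase of exon were divided by the merged length of all annotated exons of a gene, from 1713 bases for Pmvk to 10787 for Lss. That length can exceed the transcripts present in a tissue, so ranks between genes are approximate. On this scale Hmgcs1 had the highest mean CPM of the 9 and Idi1 the lowest in each of the 8 tissues, with Pmvk in rank 2 or 3. The table with the warm series and quadriceps had another order: Hmgcs1 was first in brain and ileum, Pmvk in iBAT, Fdps in liver and Fdft1 in both groups of quadriceps, and Idi1 was in rank 7 or 8. In liver of the table of 8 tissues Hmgcs1 had 229.6 CPM per kilobase, Pmvk 66.6, Fdps 59.6 and Idi1 2.74. Sqle ranged widely, from 45.9 CPM per kilobase in ileum, where it was second, to 3.38 in spleen. In quadriceps the last 2 enzymes of the chain were low: in the controls of the cold series Fdft1 had 24.2 CPM per kilobase and Hmgcs1 8.95, but Sqle 0.35 and Lss 0.33. Fdft1 carries the overlap with Ctsb named above. Idi1 was at 2.11 CPM in iBAT in the table of 8 tissues and at 8.56 CPM in iBAT of the other, and how much of that reflects reads shared with its copies was not tested.

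**Figure D5:**
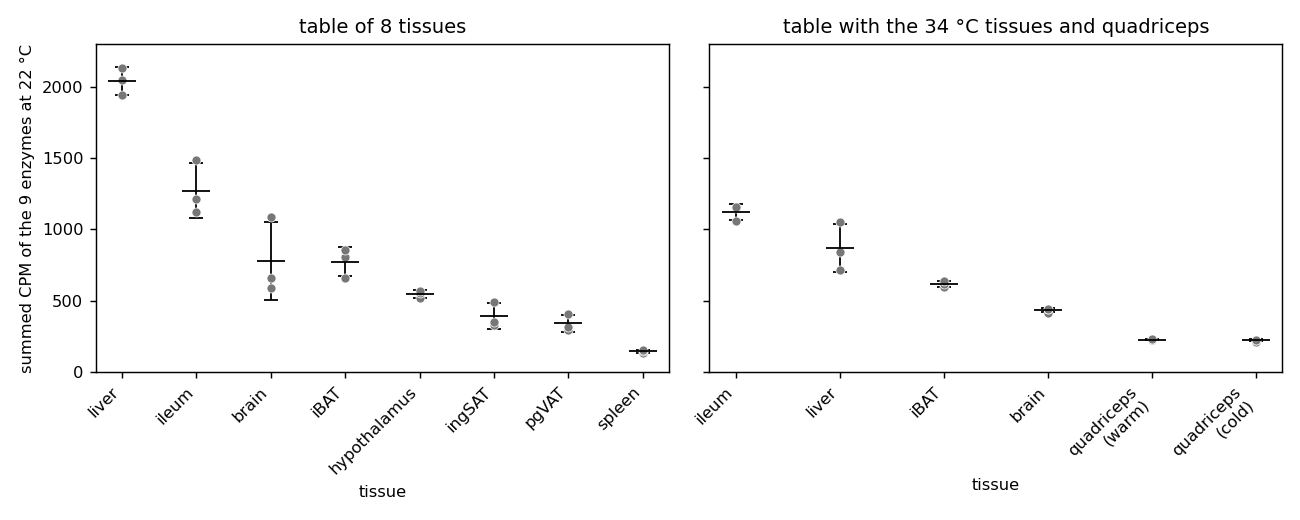
Summed CPM of the 9 enzymes at 22 °C in each library of the table of 8 tissues (left) and of the table with the warm series and quadriceps (right); points are libraries, wide bars means and whiskers SD. On this scale liver and ileum are the highest on both sides and spleen and quadriceps the lowest; by library size alone the right side has liver below iBAT and brain, and the high brain point on the left is the library with liver genes.

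The genes whose log2 fold changes over the 16 comparisons were most like the median of the 9 enzymes were ranked by Pearson's r among 9190 genes tested in all 16; the points share tissues, mice and controls, so r is a description. Of the enzymes, Pmvk (0.98), Fdps (0.97), Lss (0.94), Idi1 (0.93), Hmgcs1 (0.91) and Mvd (0.86) were close to the median, of which they are part, and Mvk (0.52) and Fdft1 (0.48) were not. Sqle, not tested in quadriceps at 34 °C, was given no r. Nsdhl, an enzyme of the later steps, came first of the other genes (r = 0.96), with log2 fold changes of 1.32 in iBAT, 1.08 in ingSAT and 1.65 in pgVAT at 10 °C and -1.55 in iBAT at 34 °C. It was followed by Mlx (0.92), Hsd17b7 (0.92), Fgfr1op (0.92), Fgfr1op2 (0.92), Ppp4r2 (0.92), Taldo1 (0.91), Acss2 (0.91), Impa2 (0.91) and Atox1 (0.91). Acss2, which makes acetyl-CoA from acetate in the cytosol, had 0.91, 1.45 and 1.98 in the 3 fat depots at 10 °C and -1.98 in iBAT at 34 °C. In pgVAT without the libraries with epididymis genes Nsdhl was at 0.998 and Acss2 at 2.48. In all, 23 other genes had an r above 0.9. Without the brain comparison at 10 °C Nsdhl remained first and the other 9 lay between ranks 3 and 22.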

How the data were processed

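mRNA of mouse tissues was sequenced in 106 libraries. Per the labels and the submitters' processing notes, the authors aligned reads to mm10 with STAR 2.5.3a, evaluated them with Picard 1.141 and counted them per gene with HTSeq 0.6p1; the deposited values are raw counts per gene, not normalized. The setting for strand is not given in the sources used here. Per the labels and the study's methods, the table of 8 tissues came from NEBNext Ultra libraries and the others from TruSeq stranded mRNA libraries; for the quadriceps of the cold series the labels name TruSeq and the methods do not.

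Groups came from the sample titles and characteristics; every column was used (0 left out). The 6 quadriceps controls were divided between the series by their column names. Each tissue was fitted alone in edgeR 4.0.16 (R 4.3.3): TMM scaling, genes with an average log2 CPM above 0, quasi-likelihood F-test, Benjamini-Hochberg adjustment over all genes. The interaction tests used all libraries of a table in 1 fit. DESeq2 1.42.0, edgeR's exact test, other scalings and filters, a replicate block and leaving out libraries were alternatives; those that leave out libraries by their epididymis, pancreas or liver genes were chosen after seeing the data. p-values of pooled libraries measure the spread between pools.

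Gene positions and shared 50-base runs came from GENCODE M21 on GRCm38, and Ensembl identifiers were turned into symbols with it; promoters are RefSeq, GRCm38.p6, searched over the 250 bases before the start. Scripts were tested on simulated counts. The 9 genes, the lists and the tests were chosen with earlier results of these data known. Named were the 9 genes in every comparison, up to 5 genes of each list with the smallest adjusted p below 0.05, Insig1 and Srebf2 where at least 3 of the 9 were called, and the 10 genes of highest r; Ebp, and Lbr at 10 °C, were named after their values were seen. Some genes of the pathway and marker lists are not reported here and stay out of the lists' counts. The warm ingSAT and pgVAT samples were not analysed here.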

Additional observations from a re-analysis of the deposited data

Results flagged for a closer look

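Single libraries far from the others of their group were found in 5 of 45 groups of 5 or 6 libraries checked for the 9 genes, by the gap to the nearest library against the range; chance flags about 1 in 20 groups. In spinal cord, Hmgcs1 was 646 CPM in replicate 3 at 22 °C, with the next library at 565 CPM. In the same tissue, replicate 4 at 10 °C had 52.2 CPM of Mvk and 86.4 CPM of Pmvk, with the next libraries at 36.8 and 59.7 CPM, and replicate 1 at 22 °C had 32.3 CPM of Mvk, under 38.2 CPM in the next. Replicate 4 at 10 °C thus stood apart in 2 neighbouring kinases of the chain. In quadriceps at 22 °C, Fdps was 45.9 CPM, scaled over the whole table, in replicate 1 of the cold series, the library with pancreas genes, with the next of the 6 controls at 32.4 CPM.

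The responses that differed between tissues in the interaction test were, at 10 °C, those of Mvd (adjusted p = 0.000291), Fdps (0.000672), Lss (0.00119), Pmvk (0.00181), Sqle (0.00235) and Hmgcs1 (0.025), and at 34 °C those of Pmvk (0.00258), Idi1 (0.0165) and Lss (0.034), by edgeR's quasi-likelihood test over all genes. Pmvk and Lss are the 2 genes in both sets; by library size alone Lss did not pass at 34 °C (0.135).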

How the results depend on the processing

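The counts of called enzymes stayed within 1.5 times in 142 of 154 alternative fits at 10 °C and 64 of 66 at 34 °C. Most of these fits came from tissues with 0 calls in the main fit, where 0 again counted as unchanged. The totals therefore say little about the tissues with calls. The counts that moved were in ingSAT, pgVAT, quadriceps, liver, bone marrow and brain at 10 °C and in liver at 34 °C. By the adjusted p alone, the counts were 4 in ingSAT, 0 in pgVAT, 0 in quadriceps and 2 in bone marrow. Scaling by library size alone left 4 in pgVAT, leaving out its libraries with epididymis genes 4, and leaving out the quadriceps libraries with epididymis or pancreas genes 2. With each library left out in turn, the calls numbered 6 to 7 in iBAT, 7 to 8 in ingSAT, 3 to 6 in pgVAT, 0 to 1 in liver, 2 to 4 in quadriceps and 0 to 1 in brain at 10 °C, and 5 to 6 in iBAT and 0 to 3 in liver at 34 °C. Among enzymes called in at least 1 fit, directions turned for Idi1 in brain at 10 °C (0.87 without replicate 2 at 22 °C, range -1.09 to 0.87). In liver at 34 °C they turned for Hmgcs1 (range -0.63 to 0.063, above 0 without replicate 1 or 3 at 34 °C) and Sqle (range -0.83 to 0.040, above 0 without replicate 2 at 22 °C or 1 at 34 °C). Among list genes past the adjusted p in the main fit, the direction turned for Nus1 in iBAT at 34 °C (0.011 by library size). Over all 9 genes, differences not called turned sign in 13 of 143 values by library size alone, 4 by DESeq2 and 14 of 134 without replicate 2 at 22 °C. The causes were not tested.

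Library size alone moved the median of all genes by -0.17 in iBAT, 0.23 in quadriceps and 0.11 in brain at 10 °C and by 0.29 in iBAT at 34 °C, and left 1 gene past the interaction test at 34 °C; that at 10 °C gave 6 by library size, and 7 without the brain library with liver genes. Summed levels at 22 °C became 669.9 CPM in iBAT, 671 in hypothalamus, 1142 in liver and 203 in spleen in the table of 8 tissues, and in the other 688 in brain, 712 in iBAT, 1374 in ileum, 607 in liver, and 157 and 183 in the quadriceps controls of the cold and warm series. In no tissue did every pair of same-numbered libraries deviate together (correlation over 0.1), and the main fit did not pair them. In ileum the correlations were 0.415, -0.079 and 0.418 in replicates 1 to 3, and in iBAT replicate 1 had 0.43. A rule that needs every pair cannot exclude pairing or a shared batch. With the replicate number as a block, 6 enzymes were called in iBAT, 8 in ingSAT, 5 in pgVAT and 0 in each other tissue with numbered libraries. With 3 libraries a group, small differences such as those in ileum did not pass the adjustment.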
